A study of Mus musculus with 10 samples.

Results

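The 44 genes described here encode the machinery that copies DNA and the proteins that accompany it through S phase. They were chosen by name as a list, and each was represented by the probe set of that symbol with the highest mean over the arrays. A probe set of a single symbol was found for 43 of the 44, out of 18193 genes in all, and all 43 were among the 13644 genes tested, which leave out the dimmest 25% of genes by mean signal. The remaining one, Chaf1a, was not analysed here. RNA came from mouse 3T3-L1 preadipocytes, a clonal fibroblast-like line that can be driven to become fat cells, seeded just before transfection with 60 nM double-stranded siRNA and left in the same calf serum medium until harvest. In all, 4 groups were hybridised to Affymetrix arrays: cells with an siRNA against LSD1 (siLsd1) at 48 h, 3 arrays, cells with a scrambled siRNA (siC) at 48 h, 3 arrays, siLsd1 cells at 24 h, 2 arrays, and siC cells at 24 h, 2 arrays. The 48 h cells were of passage 21 and the 24 h cells of passage 19. LSD1, encoded by Kdm1a, is a histone demethylase that removes methyl groups from lysine residues of histone H3. The design text calls the replicates of a group biological.

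DNA replication is prepared in G1, when the origin recognition complex, CDC6 and CDT1 load the ring-shaped MCM2-7 helicase onto DNA, a step called licensing. At the start of S phase CDC45 and the GINS complex join MCM2-7 to form the active helicase, after which polymerase alpha with primase lays down primers and polymerases epsilon and delta extend the leading and lagging strands, held on DNA by the clamp PCNA. Many of these genes are transcribed as cells approach S phase under the E2F factors, which are held back by the retinoblastoma family in resting cells, and cyclin E with CDK2 drives that passage. 3T3-L1 preadipocytes proliferate until confluent and then arrest, re-entering the cycle when given the adipogenic stimulus.

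RefSeq promoter windows (GRCm38.p6, 250 bases before to 50 bases after a transcription start) were matched by symbol for 35 of the 43 tested genes, giving 41 windows. Of these, 15 windows, 36.6%, held on either strand at least one of 4 letter strings known as E2F site variants (TTTGGCGC, TTTCCCGC, TTTGGCGG or TTTCGCGC, which can overlap one another), against 777 of all 32851 windows, 2.37%. The 15 genes were Cdc6, Cdt1, Clspn, Lig1, Mcm3, Mcm5, Mcm6, Mcm7, Orc1, Pola1, Pola2, Pold1, Pole2, Rfc3 and Uhrf1. CCAAT, the letters bound by NF-Y, was in 22 of the 41 windows, 53.7%, against 37.4% of all windows, and TTTGAA, the core of the cell cycle homology element of late cell cycle genes, was in 4, 9.76%, against 17.9%. A match of letters is a description of the window and not a binding site. The stretches around the E2F strings are printed for the 10 such genes named by the rule stated with the processing, which leaves out Mcm6. They run 5′ to 3′ on the gene's strand, the matched letters in capitals, so that they can be set beside the changes. They are cut to at most 30 bases where they reach past the start.
Cdc6 chr11:98907988-98908045 (+ strand): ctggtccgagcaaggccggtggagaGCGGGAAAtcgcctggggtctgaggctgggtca
Cdt1 chr8:122568036-122568064 (+ strand): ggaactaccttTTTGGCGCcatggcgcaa
Mcm3 chr1:20820266-20820294 (- strand): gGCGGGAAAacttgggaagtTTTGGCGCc
Mcm5 chr8:75109331-75109392 (+ strand): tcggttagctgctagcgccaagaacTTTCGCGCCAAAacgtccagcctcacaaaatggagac
Pola1 chrX:93632261-93632318 (- strand): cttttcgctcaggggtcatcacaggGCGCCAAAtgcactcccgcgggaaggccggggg
Pold1 chr7:44548766-44548787 (- strand): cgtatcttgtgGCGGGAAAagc
Pole2 chr12:69228162-69228191 (- strand): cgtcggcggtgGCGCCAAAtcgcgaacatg
Rfc3 chr5:151651195-151651224 (- strand): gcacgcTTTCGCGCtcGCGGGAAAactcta
Lig1 chr7:13278835-13278864 (+ strand): ccctcCCGCCAAAgtgcGCGCGAAAtctgt
Uhrf1 chr17:56304103-56304160 (+ strand): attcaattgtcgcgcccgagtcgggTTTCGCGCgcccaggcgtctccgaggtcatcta
In Mcm5 a TTTCGCGC and the reverse of a TTTGGCGC share bases, and in Mcm3, Rfc3 and Lig1 a pair of strings stands close together. All 10 of these genes were lower in siC cells at 48 h than at 24 h, as were 40 of the 43 genes and 12.2% of all genes tested. The rule that named them draws in part on that same comparison, so that count says nothing about the strings. The strings were found in Cdc6, at least 8.64-fold lower with its dimmest values raised to the level of the filter. They were also found in Pold1, 1.85-fold lower.

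Values are log2 of the deposited intensity, and changes are differences on that scale. A gene was called when limma's p-value, adjusted by Benjamini and Hochberg over all 13644 genes, was under 0.05. The median intensity of an array lay between 35.6 and 40.6 units. On the brighter probe set of Kdm1a, the targeted gene, every siLsd1 array lay below every siC array of its time. It read 10.40, 10.38 and 9.81 in siLsd1 cells at 48 h, against 10.64, 10.80 and 10.79 in siC cells, and 9.97 and 9.92 in siLsd1 cells at 24 h, against 10.61 and 10.66 in siC cells. Replicate 3 of siLsd1 at 48 h, the array with the lowest Kdm1a of the 48 h samples, stood apart: the SD of its log2 differences from its replicates over all tested genes was 0.511 and 0.505, against 0.273 to 0.370 for other pairs of arrays within a group. It is therefore given separately throughout.

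Of the preadipocyte and fibroblast markers, 11 of 12 had a probe set and 10 of these were above the dim level, the mean log2 intensity of 4.20 at and below which genes were left out, all but Cd34. The summed intensity of the 11 was 46670 and 48030 on siLsd1 48 h replicates 1 and 2, 36980 on replicate 3 and 50420 to 52150 on the siC 48 h arrays, and 43800 to 44500 in siLsd1 cells at 24 h, against 47780 to 49680 in siC cells. Mature adipocyte markers (9 measured, 6 of them above the dim level, with Lep, Cidec and Retn dim) summed to 2418 to 4071 in siLsd1 cells at 48 h, against 5851 to 6548 in siC cells, and to 2429 to 2670 in siLsd1 cells at 24 h, against 4651 to 4721 in siC cells. Fabp4, which encodes a fatty acid binding protein, alone made up 54.3% to 81.5% of that sum. The other 8 summed to 1034 to 1063 in siLsd1 cells at 48 h, against 1207 to 1313 in siC cells, and to 1056 to 1109 in siLsd1 cells at 24 h, against 1141 to 1150 in siC cells. The 8 macrophage markers summed to 798.1 to 1024 over all arrays with Ptprc dim, and only 2 of 6 endothelial and 1 of 5 epithelial markers were above the dim level. The part of Kdm1a and of these marker differences in the replication gene values was not tested.

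The control cells alone showed the widest range. In siC cells 40 of the 43 replication genes were lower at 48 h than at 24 h, 93.0% of them, and none was higher, where 12.2% of all 13644 tested genes were lower and 1640 were higher, 24.2% called in either direction. The median change was −1.37 (highest 0.11), against 0.01 over all genes. The siC arrays of both times did not overlap for the same number, 40 genes, all lower at 48 h, where 26.9% of all genes were lower and 28.7% higher without overlap. Tk1 fell by 3.86 on the log2 scale. Cdc6, whose 3 siC 48 h values all lay under the dim level, fell by at least 3.11 with values under that level raised to it, a bound chosen after the values were seen. Tk1 ranked 1 and Cdc6 9 by absolute change among all 13644 genes with low values so raised. Time after transfection and passage cannot be told apart here, and neither, in RNA of whole cultures, can fewer cells in S phase and less of the mRNA per cell.

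**Figure D1:**
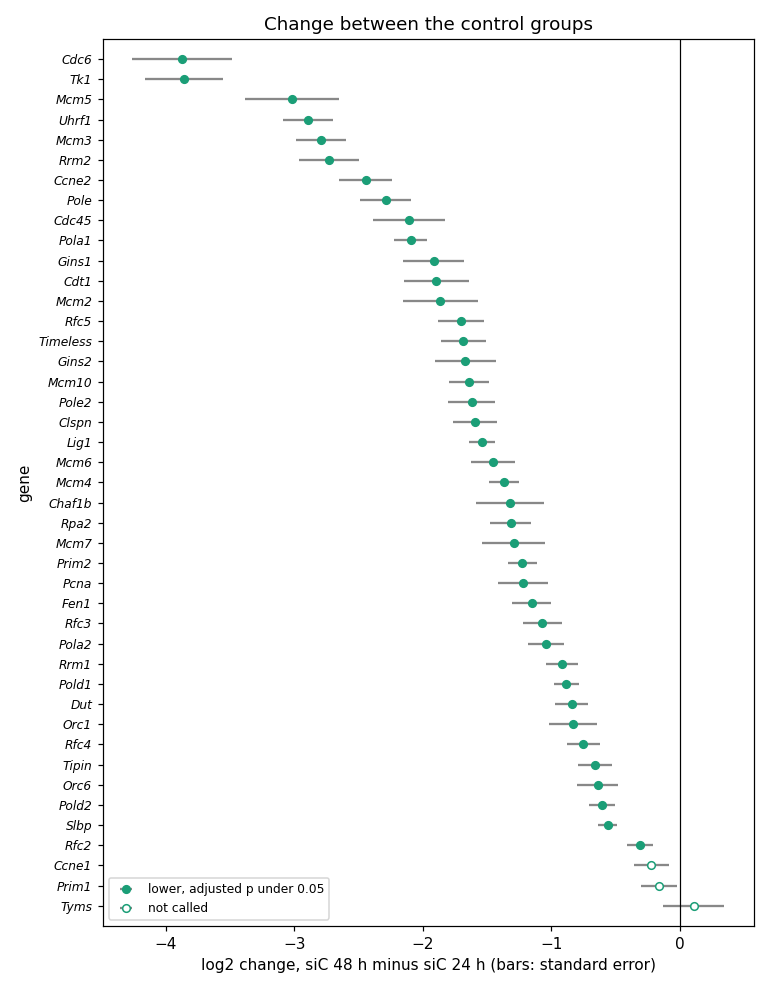
Log2 change of each of the 43 genes, siC cells at 48 h minus siC cells at 24 h, with the standard error of the limma fit as bars. Filled points are the 40 genes called lower, with Tk1 and Cdc6 the lowest, the siC 48 h values of Cdc6 being under the dim level, and open points are Ccne1, Prim1 and Tyms.

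With the siRNA against LSD1, 1 of the 43 genes, Timeless, was called lower at 48 h and 0 were called higher, 2.33% lower where 6.67% of all genes were lower and 6.00% higher. That count is below the background and says nothing particular to these genes. The median change was 0.11 (range −0.74 to 0.70), against −0.02 over all genes, with 28 genes above 0, where 47.8% of all genes were, and 10 genes, where 31.7% of all did, had an unadjusted p under 0.05. Without siLsd1 replicate 3 the median was −0.05, and 2 genes were higher (Mcm2 and Mcm6) and 2 lower (Timeless and Rpa2), where 8.16% of all genes were higher and 9.96% lower. Arrays of siLsd1 and siC did not overlap for 6 genes higher and 5 lower, against 16.6% and 20.9% of all genes. The count of calls was 4 without siLsd1 replicate 2 (3 higher and 1 lower), where 14.2% of all genes were called. It was 0 without siC replicate 2 or 3, where 2.80% and 4.10% of all were.

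At 24 h 4 of the 43 genes were lower with the siRNA against LSD1, 9.30% of them, where 2.79% of all genes were lower, and 0 were higher, where 2.60% of all were. The 4 were Timeless, a protein of the replication fork, Pola1 and Pold1, the catalytic subunits of polymerases alpha and delta, and Lig1, the ligase that joins Okazaki fragments. The median change was −0.29 (range −1.45 to 0.28), against −0.02 over all genes, 37 genes were below 0, where 53.0% of all genes were, and 13 had an unadjusted p under 0.05, as did 22.5% of all genes. Both siLsd1 arrays lay below both siC arrays for 30 genes, 69.8%, and above both for 2, against 33.9% and 27.5% of all genes. The odd array of the 48 h siLsd1 group belongs to neither side of this comparison but enters the estimate of spread behind every test, and leaving it out took the count to 17 lower and 0 higher, against 15.3% and 10.1% of all genes. Without siLsd1 24 h replicate 1, or without siC 24 h replicate 1, the count was 0, and it was 1 when siC 24 h replicate 2 was dropped and 2 when replicate 2 of siLsd1 at 24 h or of siC at 48 h was.

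The change at 48 h was above the change at 24 h for 41 of 43 genes, where it was for 52.3% of all genes, with a median difference of 0.46, against 0.01 over all genes. None passed the test of that difference: limma called 0 of the 13644 genes, 0%, and 13 of the 43, and 6.57% of all genes, had an unadjusted p under 0.05. Without siLsd1 48 h replicate 3 the test called 1 of the 43, Mcm6, where 1.08% of all genes were called higher at 48 h. The 24 h siC arrays enter both the change with siRNA at 24 h and the change of the controls with time, so that the 2 comparisons are not independent of one another.

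**Figure D2:**
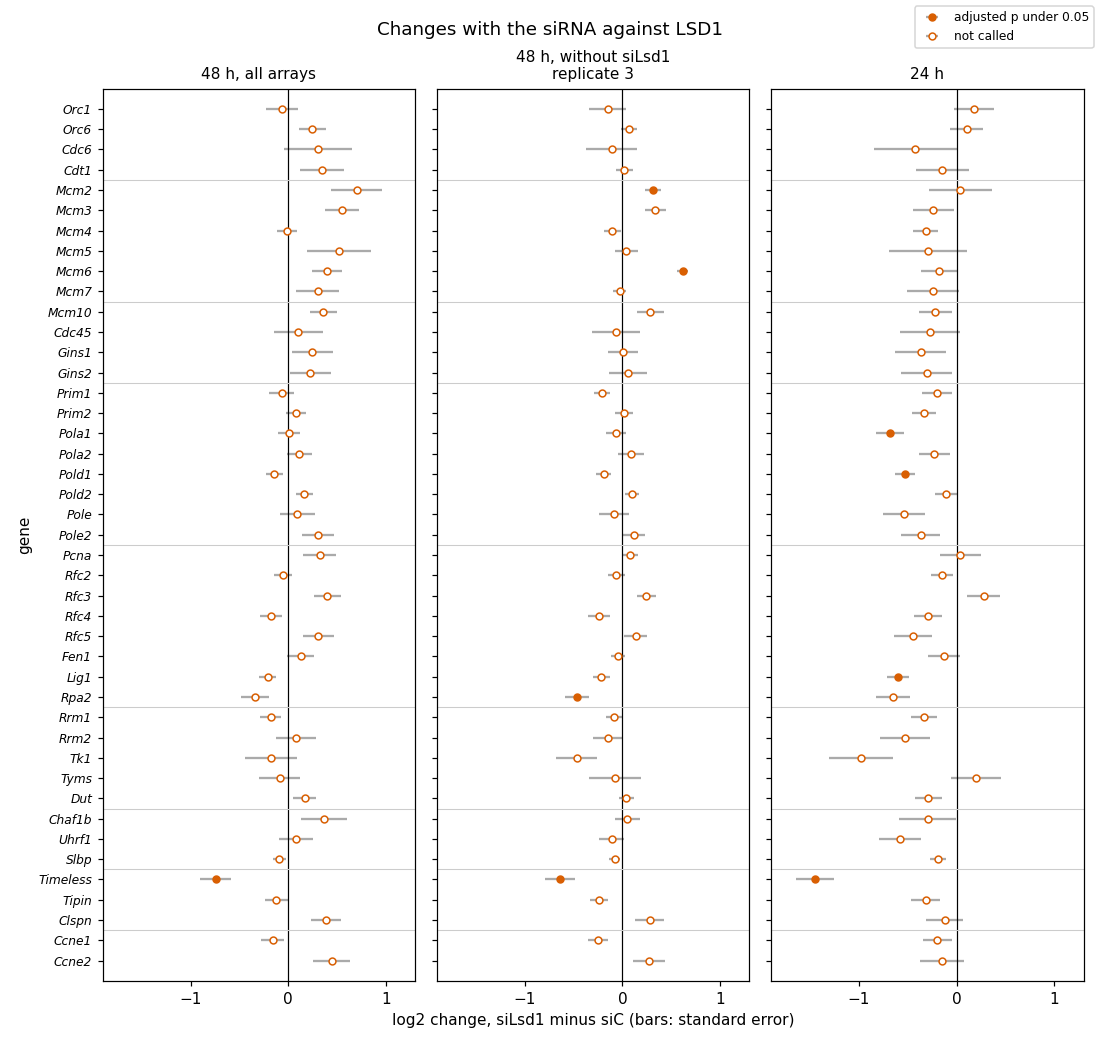
Log2 change, siLsd1 minus siC, of each of the 43 genes at 48 h with all arrays, at 48 h without siLsd1 replicate 3 and at 24 h, with the standard error of the limma fit as bars. Filled points are called: Timeless in all 3 panels, Mcm2, Mcm6 and Rpa2 in the middle panel, and Pola1, Pold1 and Lig1 at 24 h.

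SiLsd1 48 h replicate 3 was above both of its replicates for 37 of the 43 genes, 86.0%, where 39.5% of all genes were, and below both for 5, where 47.0% of all genes were. The median of replicate 3 minus the mean of replicates 1 and 2 was 0.43 (range −0.65 to 1.45), against −0.04 over all genes. Taking the median deviation of the 43 genes from the siC 48 h mean as a level, the array stood at 0.44, its replicates at 0.01 and −0.06 and the siC 48 h arrays at −0.04 to 0.02. The 24 h arrays stood at 0.95 and 1.18 for siLsd1, against 1.44 and 1.29 for siC. For 30 genes replicate 3 was above all 3 siC arrays of its time and for 7 below them, against 35.9% and 40.6% of all genes. Replicates 1 and 2 were both above the siC arrays for 7 genes and both below for 11, against 21.6% and 25.8% of all genes. Replicate 3 was below both siLsd1 24 h arrays for 39 genes, as were 42.7% of all. By role the excess was 0.82 in the median for MCM2-7, 0.75 for origin recognition and licensing, 0.58 for chromatin copying and 0.22 for primase and polymerases.

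**Figure D3:**
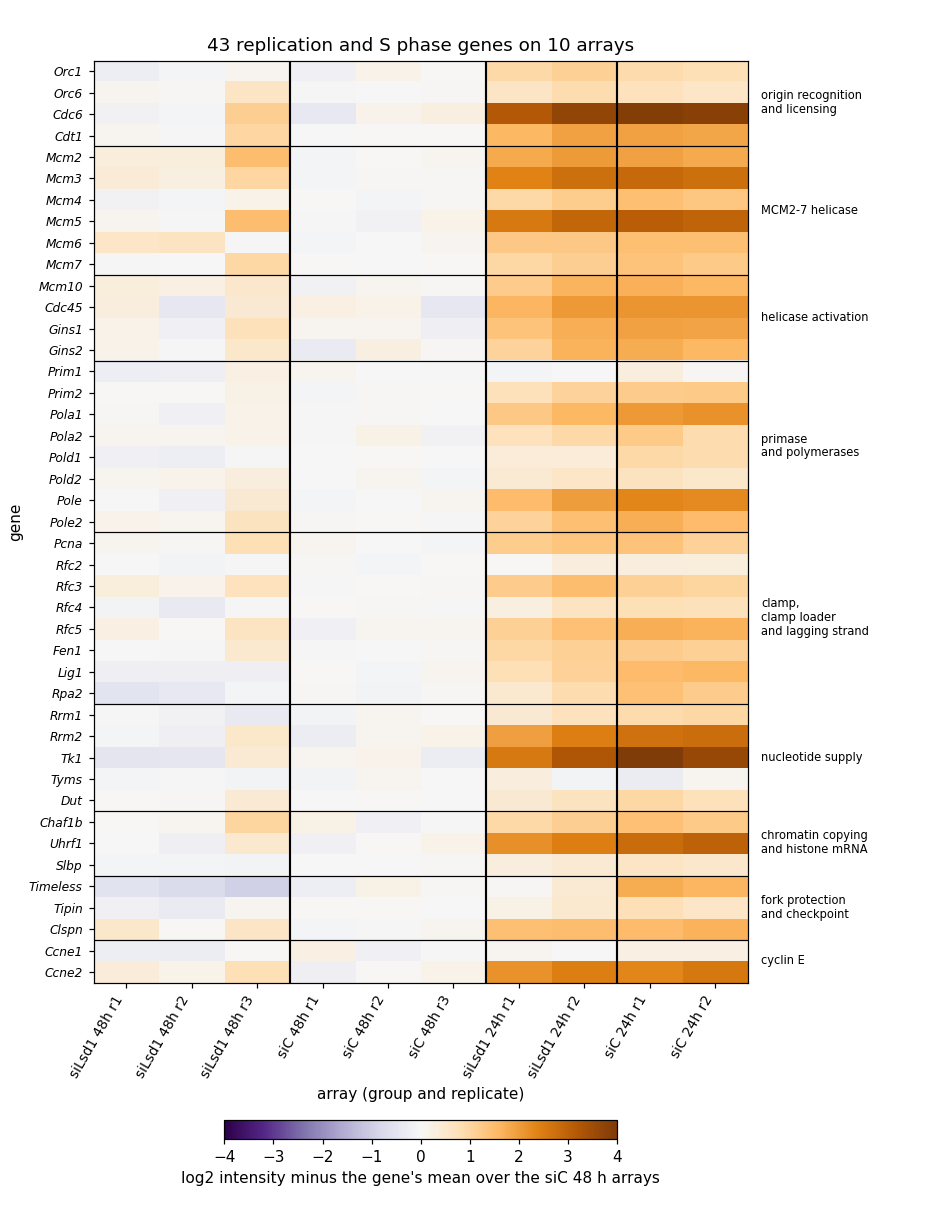
Log2 intensity of each of the 43 genes on each of the 10 arrays, minus the gene's mean over the siC 48 h arrays, in rows by role and columns by group. The 24 h columns are orange for most genes and siLsd1 48 h replicate 3 is paler orange for most of them, while Mcm6, Timeless and Rrm1 are among the rows in which that array is not above its replicates.

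The genes of origin recognition and licensing were lower in the controls at 48 h, 4 of 4 on the probe sets used. CDC6 is the ATPase that brings CDT1 and MCM2-7 to origins. For Cdc6 the siLsd1 48 h arrays read 3.30, 3.36 and, on replicate 3, 4.58 on the log2 scale, against 3.04, 3.57 and 3.71 for siC. Cdc6 values at 24 h were 6.62 and 7.16 in siLsd1 cells, against 7.35 and 7.27 in siC cells. The 48 h arrays lay below every 24 h array, siLsd1 replicate 3 was the highest of them, and 5 of the 6, all 3 siC arrays among them, were under the dim level of 4.20. With values under that level raised to it, Cdc6 was at least 8.64-fold lower in siC cells at 48 h. No p-value is given for that bound, since raising makes the 3 siC 48 h values equal and removes their spread. The change fitted to the values as they stood, which is no bound, was −3.87 (SE 0.39, limma adjusted p 0.000147). CDT1 is the loader of MCM2-7, destroyed once S phase begins. Log2 intensities of Cdt1 were 8.79, 8.68 and 9.71 on siLsd1 replicates 1, 2 and 3 at 48 h, against 8.69, 8.72 and 8.73 with siC. The siLsd1 arrays gave Cdt1 10.30 and 10.63 at 24 h, against 10.64 and 10.58 with siC. Replicate 3 was well above the other 48 h arrays, and the 24 h siLsd1 arrays overlapped the siC arrays. Its siC change was −1.90, 3.72-fold (SE 0.25, limma adjusted p 0.000660), while the changes with siRNA were 0.35 at 48 h and −0.15 at 24 h, neither called. Orc1 and Orc6, subunits of the origin recognition complex, changed by −0.83 and −0.64 with time in the controls, the smallest falls of the role. Another Orc1 probe set, with a mean of 5.18 against 5.37 for the one used, changed by 0.50.

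All 6 MCM2-7 subunits were lower in the controls at 48 h, with changes of −1.29 (Mcm7) to −3.02 (Mcm5). Mcm5 stood at 8.02, 7.86 and, on replicate 3, 9.39 on the log2 scale in siLsd1 cells at 48 h, against 7.85, 7.77 and 8.07 in siC cells. Mcm5 was at 10.45 and 10.81 in siLsd1 cells at 24 h, against 10.97 and 10.86 in siC cells. Replicate 3 lay between the other 48 h arrays and all 24 h arrays. The siC change of Mcm5 was 8.11-fold (SE 0.37 on the log2 scale, limma adjusted p 0.000422), and the excess of replicate 3 over its replicates, 1.45, was the highest of the 43 genes. Mcm3 had log2 intensities of 7.0 and 6.89 on siLsd1 48 h replicates 1 and 2 and 7.60 on replicate 3, against 6.52, 6.66 and 6.65 on the siC 48 h arrays. Mcm3 read 9.0 and 9.34 with siLsd1 at 24 h, against 9.45 and 9.35 with siC. All 3 siLsd1 arrays were above the siC arrays at 48 h, with a change of 0.55 (SE 0.17, limma adjusted p 0.0623), or of 0.33 without replicate 3 (limma adjusted p 0.0547), neither called. The siC change of Mcm3 was −2.79, 6.94-fold (SE 0.20, limma adjusted p 3.37e-05). Other Mcm3 probe sets, with means of 7.71, 7.03, 7.58 and 5.12, changed by −2.64, −2.55, −0.38 and −0.39 between the siC groups. Their changes with siRNA at 48 h were 0.40, 0.21, −0.01 and −0.01 in that order.

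Mcm2 and Mcm6, subunits of the same ring, ran apart from each other on replicate 3. For Mcm2 the siLsd1 48 h arrays read 8.81, 8.81 and, on replicate 3, 9.97 on the log2 scale, against 8.41, 8.51 and 8.57 for siC. Mcm2 values at 24 h were 10.29 and 10.51 in siLsd1 cells, against 10.42 and 10.30 in siC cells. All siLsd1 arrays at 48 h were above the siC arrays, replicate 3 most of all. The 48 h change of Mcm2 was 0.70 (SE 0.26, limma adjusted p 0.0981), and 0.31 without replicate 3 (limma adjusted p 0.0218). Another Mcm2 probe set had 7.84, 7.61 and, on replicate 3, 8.98 in siLsd1 cells at 48 h, against 7.07, 7.28 and 7.12 in siC cells. Mcm6 was singled out after its values were seen. Log2 intensities of Mcm6 were 10.56, 10.63 and 9.94 on siLsd1 replicates 1, 2 and 3 at 48 h, against 9.91, 9.95 and 10.06 with siC. The siLsd1 arrays gave Mcm6 11.26 and 11.24 at 24 h, against 11.43 and 11.43 with siC. Replicates 1 and 2 were above the siC arrays at 48 h and replicate 3 was among them, which is the lowest position of replicate 3 against its replicates of any of the 43 genes (−0.65). The 48 h change was 0.40 (limma adjusted p 0.105), and 0.62 without replicate 3 (limma adjusted p 4.64e-05), where the difference between the times was 0.80 (limma adjusted p 0.00351). Another Mcm6 probe set had 9.90, 9.78 and, on replicate 3, 8.67 in siLsd1 cells at 48 h, against 8.54, 9.07 and 9.33 in siC cells, the same arrangement. Mcm4 stood at 9.30, 9.35 and, on replicate 3, 9.60 on the log2 scale in siLsd1 cells at 48 h, against 9.46, 9.35 and 9.48 in siC cells. Mcm4 was at 10.34 and 10.61 in siLsd1 cells at 24 h, against 10.87 and 10.72 in siC cells. The groups of Mcm4 overlapped at 48 h and did not at 24 h, where the change was −0.32 (SE 0.13, limma adjusted p 0.178).

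**Figure D4:**
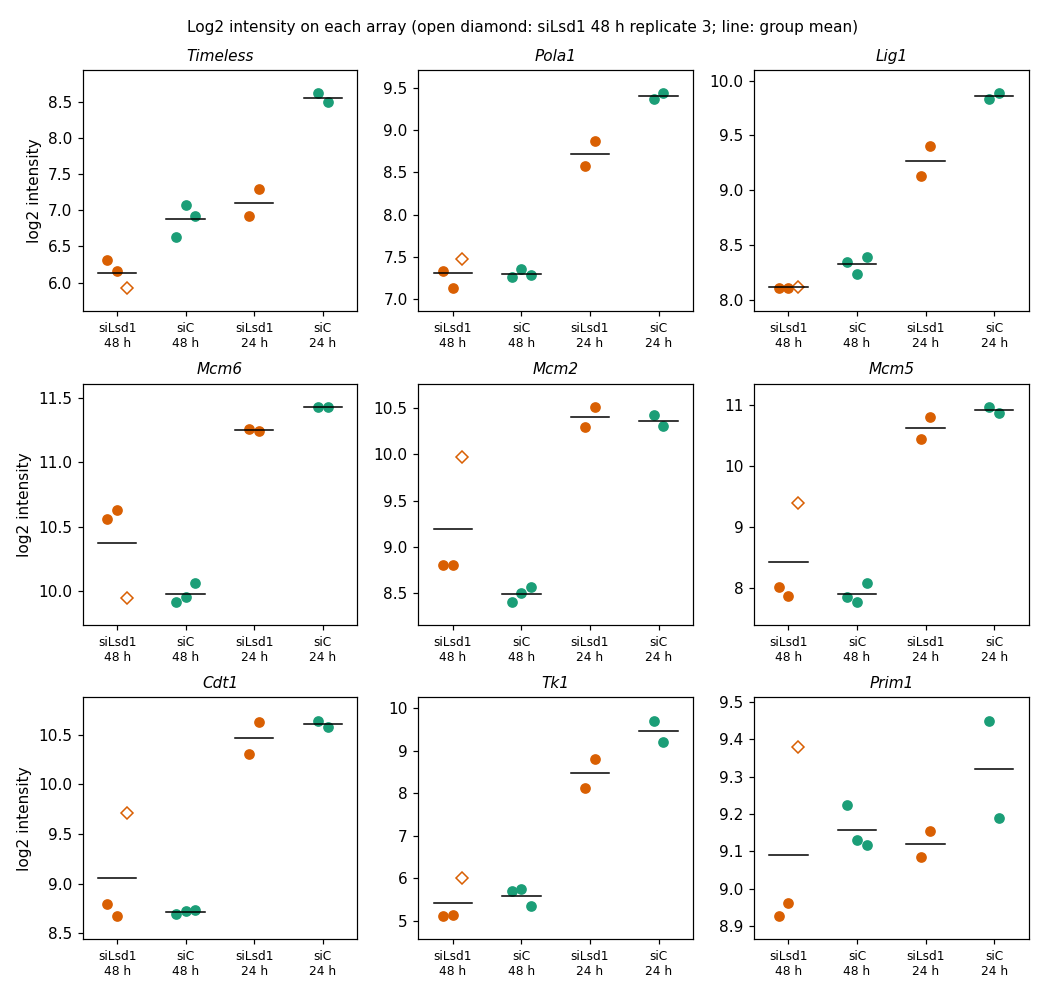
Log2 intensity of 9 genes on each array by group, with siLsd1 48 h replicate 3 as an open diamond and the group mean as a line. The diamond is above the other siLsd1 48 h points for Mcm2, Mcm5, Cdt1, Tk1 and Prim1 and below them for Mcm6 and Timeless, and for Timeless, Pola1 and Lig1 the siLsd1 24 h points lie below the siC 24 h points.

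On the probe sets used, the 4 factors that turn the loaded ring into a working helicase were all lower in the controls at 48 h. Their changes were −1.64 (Mcm10) to −2.11 (Cdc45). Of other probe sets above the dim level, that of Cdc45 (mean 6.17) changed by 0.25, one of Mcm10 (mean 4.93) by −0.35 and that of Gins2 by −1.76. CDC45 rides with MCM2-7 at the fork. Cdc45 had log2 intensities of 5.87 and 5.14 on siLsd1 48 h replicates 1 and 2 and 6.02 on replicate 3, against 5.82, 5.74 and 5.16 on the siC 48 h arrays. Cdc45 read 7.19 and 7.64 with siLsd1 at 24 h, against 7.68 and 7.69 with siC. The siLsd1 arrays at 48 h spanned the siC arrays, and the siC change with time was 4.31-fold (SE 0.28, limma adjusted p 0.000673). Gins1 encodes a subunit of GINS. For Gins1 the siLsd1 48 h arrays read 6.14, 5.79 and, on replicate 3, 6.70 on the log2 scale, against 6.05, 6.06 and 5.77 for siC. Gins1 values at 24 h were 7.32 and 7.69 in siLsd1 cells, against 7.90 and 7.85 in siC cells. Replicate 3 was the highest of the 48 h arrays, and both siLsd1 arrays were below the siC arrays at 24 h. Its change with time was −1.91 (SE 0.24, limma adjusted p 0.000459), and with siRNA 0.25 at 48 h and −0.37 at 24 h, neither called. MCM10 assists the activation of the helicase. Log2 intensities of Mcm10 were 6.44, 6.37 and 6.63 on siLsd1 replicates 1, 2 and 3 at 48 h, against 5.96, 6.24 and 6.15 with siC. The siLsd1 arrays gave Mcm10 7.33 and 7.75 at 24 h, against 7.81 and 7.70 with siC. Its siLsd1 arrays at 48 h were all above the siC arrays, with a change of 0.36 (SE 0.14, limma adjusted p 0.108).

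Among primase and polymerase subunits 7 of 8 were lower in the controls at 48 h, and 2 were lower with the siRNA at 24 h. Pola1 encodes the catalytic subunit of polymerase alpha, which extends the RNA primer. Pola1 stood at 7.34, 7.13 and, on replicate 3, 7.47 on the log2 scale in siLsd1 cells at 48 h, against 7.27, 7.36 and 7.28 in siC cells. Pola1 was at 8.57 and 8.87 in siLsd1 cells at 24 h, against 9.36 and 9.44 in siC cells. At 24 h both siLsd1 arrays lay below the siC arrays, and at 48 h the groups overlapped. The 24 h change was −0.68, 1.60-fold lower (SE 0.14, limma adjusted p 0.0246), the 48 h change 0.01 (limma adjusted p 0.959) and the siC change with time −2.10 (limma adjusted p 2.19e-05). Averaged with its other probe set, which is dim, the 24 h change of Pola1 was 0.30 (limma adjusted p 0.783). Pold1 encodes the catalytic subunit of polymerase delta, the lagging strand enzyme. Pold1 had log2 intensities of 7.39 and 7.32 on siLsd1 48 h replicates 1 and 2 and 7.51 on replicate 3, against 7.54, 7.58 and 7.53 on the siC 48 h arrays. Pold1 read 7.91 and 7.90 with siLsd1 at 24 h, against 8.48 and 8.40 with siC. The siLsd1 arrays were below the siC arrays at both times. The 24 h change was −0.53, 1.44-fold lower (SE 0.11, limma adjusted p 0.0221), and the 48 h change, −0.14, was not called (limma adjusted p 0.285). In the controls Pold1 changed by −0.88. Leaving out any of the 4 arrays of 24 h ended the 24 h calls of both genes, with limma adjusted p-values of 0.0594 to 0.234, and so did leaving out siC 48 h replicate 2 (limma adjusted p 0.0509 for each).

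Pole and Pole2 encode the catalytic subunit and a smaller subunit of polymerase epsilon, the leading strand enzyme. For Pole the siLsd1 48 h arrays read 5.68, 5.53 and, on replicate 3, 6.14 on the log2 scale, against 5.61, 5.66 and 5.80 for siC. Pole values at 24 h were 7.20 and 7.68 in siLsd1 cells, against 8.01 and 7.94 in siC cells. At 24 h the siLsd1 arrays were below the siC arrays without passing the test (−0.54, SE 0.22, limma adjusted p 0.180), and 4.89-fold separated the siC groups (limma adjusted p 8.08e-05). Log2 intensities of Pole2 were 7.30, 7.24 and 7.83 on siLsd1 replicates 1, 2 and 3 at 48 h, against 7.19, 7.18 and 7.10 with siC. The siLsd1 arrays gave Pole2 8.21 and 8.60 at 24 h, against 8.88 and 8.67 with siC. Pole2 changed by −1.62 with time in the controls (SE 0.18, limma adjusted p 0.000289), by 0.30 with siRNA at 48 h and by −0.37 at 24 h. Prim1, the catalytic subunit of primase, was one of 3 genes not called between the siC groups, with −0.16 (limma adjusted p 0.451). A dimmer Prim1 probe set, with a mean of 7.71, changed by −0.53 between these groups.

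The clamp, its loader and the lagging strand enzymes were all lower in the controls at 48 h (8 of 8, −0.31 for Rfc2 to −1.71 for Rfc5). LIG1 seals the nicks between Okazaki fragments. Lig1 stood at 8.11, 8.11 and, on replicate 3, 8.12 on the log2 scale in siLsd1 cells at 48 h, against 8.35, 8.24 and 8.39 in siC cells. Lig1 was at 9.13 and 9.40 in siLsd1 cells at 24 h, against 9.84 and 9.89 in siC cells. The siLsd1 arrays were below the siC arrays at both times, and at 48 h replicate 3 was level with its replicates. The 24 h change was −0.60, 1.51-fold lower (SE 0.11, limma adjusted p 0.0170), and the 48 h change −0.21 (SE 0.09, limma adjusted p 0.142). The 24 h call was lost without siLsd1 24 h replicate 1 (limma adjusted p 0.191) and without siC 24 h replicate 1 (0.111) or replicate 2 (0.123). RPA2 is a subunit of the protein that coats single-stranded DNA. Rpa2 had log2 intensities of 6.93 and 7.06 on siLsd1 48 h replicates 1 and 2 and 7.37 on replicate 3, against 7.50, 7.35 and 7.51 on the siC 48 h arrays. Rpa2 read 7.93 and 8.30 with siLsd1 at 24 h, against 8.88 and 8.66 with siC. Replicates 1 and 2 at 48 h lay below the siC arrays and replicate 3 among them. The change at 24 h was −0.66 (SE 0.17, limma adjusted p 0.0587), and at 48 h −0.34 (limma adjusted p 0.138) or, without replicate 3, −0.46 (limma adjusted p 0.0239). Rfc3, a subunit of the clamp loader, was the gene with the highest change at 24 h. For Rfc3 the siLsd1 48 h arrays read 8.36, 8.17 and, on replicate 3, 8.73 on the log2 scale, against 7.97, 8.04 and 8.06 for siC. Rfc3 values at 24 h were 9.24 and 9.50 in siLsd1 cells, against 9.14 and 9.04 in siC cells. Its siLsd1 arrays were above the siC arrays at both times, by 0.40 at 48 h (SE 0.14, limma adjusted p 0.0786) and 0.28 at 24 h (SE 0.17, limma adjusted p 0.368), neither of them called. Pcna, the clamp itself, changed by −1.22 with time in the controls (limma adjusted p 0.00175).

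Nucleotide supply genes were lower in the controls for 4 of 5. Tk1 encodes cytosolic thymidine kinase, which makes thymidine monophosphate by salvage. Log2 intensities of Tk1 were 5.12, 5.13 and 6.0 on siLsd1 replicates 1, 2 and 3 at 48 h, against 5.69, 5.74 and 5.33 with siC. The siLsd1 arrays gave Tk1 8.13 and 8.81 at 24 h, against 9.70 and 9.20 with siC. The 48 h arrays lay far below the 24 h arrays, and siLsd1 replicates 1 and 2 lay below all siC arrays of their time while replicate 3 lay above them. The siC change was −3.86, 14.5-fold (SE 0.30, limma adjusted p 5.35e-05). At 24 h the change with siRNA, −0.98 (SE 0.33, limma adjusted p 0.115), was the second largest of the 43 and did not pass the test. Rrm1 and Rrm2 encode the large and the small subunit of ribonucleotide reductase, which makes deoxynucleotides. Rrm2 stood at 7.84, 7.72 and, on replicate 3, 8.47 on the log2 scale in siLsd1 cells at 48 h, against 7.66, 8.05 and 8.10 in siC cells. Rrm2 was at 9.88 and 10.39 in siLsd1 cells at 24 h, against 10.63 and 10.70 in siC cells. Rrm2 changed by −2.73 with time in the controls (SE 0.23, limma adjusted p 7.70e-05) and by −0.53 with siRNA at 24 h, where the groups did not overlap (limma adjusted p 0.252). Rrm1 had log2 intensities of 9.47 and 9.38 on siLsd1 48 h replicates 1 and 2 and 9.13 on replicate 3, against 9.38, 9.62 and 9.51 on the siC 48 h arrays. Rrm1 read 9.97 and 10.20 with siLsd1 at 24 h, against 10.38 and 10.46 with siC. Rrm1 changed by −0.92 in the controls (limma adjusted p 0.000664), and on replicate 3 it was 0.29 below the mean of its replicates. Tyms, thymidylate synthase, was measured close to the dim level, at 4.34 to 4.91 over the arrays, and was not called in any comparison.

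All 3 genes of chromatin copying and histone mRNA were lower in the controls at 48 h on the probe sets used. UHRF1 brings the maintenance methyltransferase to newly copied DNA. For Uhrf1 the siLsd1 48 h arrays read 6.50, 6.29 and, on replicate 3, 6.98 on the log2 scale, against 6.32, 6.53 and 6.66 for siC. Uhrf1 values at 24 h were 8.69 and 8.96 in siLsd1 cells, against 9.32 and 9.49 in siC cells. Its siC change was −2.90, 7.44-fold (SE 0.19, limma adjusted p 2.99e-05), and at 24 h both siLsd1 arrays were below the siC arrays (−0.58, SE 0.21, limma adjusted p 0.142). CHAF1B is a subunit of the complex that deposits histones on new DNA. Log2 intensities of Chaf1b were 6.68, 6.75 and 7.67 on siLsd1 replicates 1, 2 and 3 at 48 h, against 6.86, 6.50 and 6.63 with siC. The siLsd1 arrays gave Chaf1b 7.58 and 7.79 at 24 h, against 8.09 and 7.88 with siC. Replicate 3 alone stood clear of the siC arrays at 48 h, and the siC change with time was −1.32 (SE 0.26, limma adjusted p 0.00588, and 0.0588 without siC 24 h replicate 1). Slbp, which binds the ends of histone mRNAs, changed by −0.56 (limma adjusted p 0.000654). Another Slbp probe set above the dim level (mean 5.39) changed by 1.95, and a dim one by −0.91.

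Timeless had the largest change of the list with the siRNA at both times. The protein works with TIPIN to hold the fork together and to pass on replication stress signals. Timeless stood at 6.32, 6.16 and, on replicate 3, 5.93 on the log2 scale in siLsd1 cells at 48 h, against 6.63, 7.08 and 6.92 in siC cells. Timeless was at 6.92 and 7.29 in siLsd1 cells at 24 h, against 8.62 and 8.50 in siC cells. At both times every siLsd1 array lay below every siC array, and replicate 3 was the lowest of all 10 arrays. The 48 h change was −0.74, 1.67-fold lower (SE 0.16, limma adjusted p 0.0197), or −0.64 without replicate 3 (limma adjusted p 0.0144). The 24 h change was −1.45, 2.74-fold lower (SE 0.19, limma adjusted p 0.00473). The 48 h call was lost without siC 48 h replicate 2 (limma adjusted p 0.0852) or replicate 3 (0.0650), and the 24 h call without siLsd1 24 h replicate 1 (0.0761) or siC 24 h replicate 1 (0.0630). The difference between the 2 changes, 0.71, was not called (limma adjusted p 0.621). Another Timeless probe set of low signal (mean 4.44) changed by −1.61 at 24 h and by 0.04 at 48 h, where all 6 of its arrays were under the dim level of 4.20. In the controls Timeless changed by −1.69 with time, Tipin by −0.66 and Clspn, which carries the signal of a stalled fork to the checkpoint kinase, by −1.60. With the siRNA Tipin changed by −0.12 at 48 h and −0.31 at 24 h, and Clspn by 0.39 and −0.12, none of them called.

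Of the 2 cyclin E genes, whose products activate CDK2 at the entry to S phase, Ccne2 was called in the controls and Ccne1 was not. Ccne2 had log2 intensities of 5.41 and 5.23 on siLsd1 48 h replicates 1 and 2 and 5.84 on replicate 3, against 4.84, 5.08 and 5.23 on the siC 48 h arrays. Ccne2 read 7.19 and 7.50 with siLsd1 at 24 h, against 7.37 and 7.61 with siC. Ccne2 fell by 5.45-fold with time (log2 change −2.45, SE 0.21, limma adjusted p 7.81e-05), and at 48 h, where the groups met at 5.23, its change with siRNA did not pass the test (0.44, limma adjusted p 0.134). For Ccne1 the siLsd1 48 h arrays read 8.20, 8.16 and, on replicate 3, 8.45 on the log2 scale, against 8.66, 8.26 and 8.38 for siC. Ccne1 values at 24 h were 8.50 and 8.41 in siLsd1 cells, against 8.65 and 8.65 in siC cells. Ccne1 was not called between the siC groups (−0.22, SE 0.13, limma adjusted p 0.268), but a dimmer probe set of the gene, with a mean of 6.97, changed by −1.93.

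The 15 genes whose promoter windows held an E2F string had a median change of −1.60 between the siC groups, and the 20 whose windows held none had −1.19. With the siRNA at 48 h these medians were 0.30 and 0.09, and at 24 h −0.24 each. The ranges overlapped widely in each comparison, and Tk1, Timeless, Mcm2 and Rrm2 were among the genes whose windows held none of the strings.

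Other genes of the pathway were mostly lower in the controls at 48 h too. Of 36 other replication genes tested, which include further origin, clamp and fork components, 24 were lower at 48 h and 1 was higher, with a median of −0.61. The largest falls were of Pclaf, a PCNA-binding protein (−3.01, SE 0.24, limma adjusted p 6.20e-05), Dscc1 of the cohesion clamp loader (−2.94, SE 0.29, limma adjusted p 0.000148) and Gmnn, the inhibitor of CDT1 (−2.56, SE 0.28, limma adjusted p 0.000234). Of 14 nucleotide synthesis genes 10 were lower and 1 higher, led by the deoxycytidine kinase gene Dck (−1.68, limma adjusted p 5.35e-05). Of 11 histone chaperone and maintenance methylation genes 9 were lower, led by the histone chaperone Asf1b (−2.79, limma adjusted p 0.000437). Of 15 replication checkpoint genes 7 were lower, led by the exonuclease Exo1 (−3.10, limma adjusted p 0.000205), and of 26 genes of G1/S control 11 were lower and 1 higher, led by the repressor E2f8 (limma adjusted p 5.02e-05). E2f8 was under the dim level on 2 of the 3 siC 48 h arrays and at least 7.06-fold lower with low values raised to it. The fall extended beyond S phase, since 28 of 29 genes of G2 and mitosis were lower, with a median of −2.47. Of all genes 12.2% were called lower in this comparison. Without siC 48 h replicate 2, where 15.5% of all genes were called in either direction, 20 of the other replication genes were lower. Without siLsd1 48 h replicate 3, where 40.4% of all were called, 28 were. Nucleotide synthesis had 7 lower without siC 48 h replicate 1, where 19.1% of all genes were called, and 12 without siLsd1 48 h replicate 3. G2 and mitosis had 28 and 29 in these last 2 fits. Both of the first lists, and all genes, had the fewest calls without a siC 24 h array, which leaves 1 array in that group.

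With the siRNA at 48 h Dbf4, the activator of the CDC7 kinase (0.93, SE 0.23, limma adjusted p 0.0316), Orc2 of the origin recognition complex (0.63, limma adjusted p 0.0304) and Mtbp (0.63, limma adjusted p 0.0463) were higher and 3 of the 36 other replication genes were lower. Ctps, which makes CTP (1.10, SE 0.22, limma adjusted p 0.0158), Samhd1, which degrades deoxynucleotides (0.75, limma adjusted p 0.0108), and the chromatin remodeller Hells (0.87, limma adjusted p 0.0198) were higher too, with 2 of 14, and 1 of 11, called in their lists and none lower. Of the G1/S control genes 5 were higher, among them Myc (1.06, limma adjusted p 0.0274) and Rbl1, which encodes the retinoblastoma family member p107 (0.71, SE 0.09, limma adjusted p 0.00268), and 1 was lower, the CDK inhibitor gene Cdkn2c (−0.70, limma adjusted p 0.0423). The checkpoint genes Hus1 (0.63, limma adjusted p 0.0297) and Rad17 (0.26, limma adjusted p 0.0468) were higher, 2 of 15. Of all genes 6.00% were higher and 6.67% lower at 48 h. Without siC 48 h replicate 1 or 2 the nucleotide synthesis genes had 1 higher and the list of Hells had 0. Of all genes 3.58% and 2.80% were called in those 2 fits. The 3 higher and 3 lower of the other replication genes became 0 and 0 when 1 siC array of either time was left out and 0 and 1 when 1 siLsd1 24 h array was, and the 5 higher G1/S control genes became 2 or 3 when any one of these 7 arrays was left out. The 2 checkpoint calls became 0 when any one of these 7 was left out and 1 without siLsd1 48 h replicate 1 or 2.

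At 24 h, where 2.79% of all genes were lower and 2.60% higher, Wdhd1, which tethers polymerase alpha to the helicase (−0.65, SE 0.16, limma adjusted p 0.0497), was lower, 1 of the 36 other replication genes with 0 higher, a share close to the background. Among nucleotide synthesis genes Cad, which starts pyrimidine synthesis (−0.75, SE 0.12, limma adjusted p 0.00986), Dck (−0.66, limma adjusted p 0.0301) and the purine synthesis gene Paics (−0.29, limma adjusted p 0.0330) were lower, 3 of 14, and the checkpoint genes Brca1 (−0.79, limma adjusted p 0.0279) and Brca2 (−0.66, limma adjusted p 0.0456) were lower, 2 of 15. Of the G1/S control genes 2 were higher and 4 lower. E2f8 (−1.61, SE 0.25, limma adjusted p 0.00823), Cdkn2c (−0.94, limma adjusted p 0.0473) and Tfdp1, the dimerisation partner of E2F proteins (−0.51, limma adjusted p 0.00763), were among the lower ones. Of the 29 genes of G2 and mitosis 8 were lower and 0 higher at 24 h, 0 were lower and 2 higher at 48 h, and the test of the difference called 0 of them. These counts rest on single arrays. Without siLsd1 48 h replicate 3, where 10.1% of all genes were higher and 15.3% lower at 24 h, the other replication genes had 1 higher and 8 lower, the nucleotide synthesis genes 2 and 3, the checkpoint genes 1 and 3, and the G1/S control genes 9 higher and 7 lower, so that the balance of that list turned. G2 and mitosis then had 1 higher and 25 lower at 24 h, and the difference between the times was called for 12 of the 29, all higher at 48 h, where 1.08% of all genes were. Without siLsd1 24 h replicate 1 or either siC 24 h array, 1 array was left in a group. These lists then lost their calls at 24 h, as did most of all genes called in the main fit. Of the 10 fits that left out 1 array, Wdhd1 was called only in the one without siLsd1 48 h replicate 3. On siLsd1 48 h replicate 3 the median deviation of the G2 and mitosis genes from the siC 48 h mean was 0.77, against 0.11 and −0.09 on its replicates.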

How the data were processed

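Expression of 10 samples was measured on Affymetrix arrays after biotin labelling of cRNA, as the labels state. The authors deposited linear intensities of 45037 probe sets for each array. Their summary and normalization methods are not given in the sources used here. These deposited intensities, none of which was 0 or below, were turned into log2 values as they stood, without further normalization. The platform annotation gave 1 gene symbol to 34945 probe sets, several to 932 and none to 9160. The probe set with the highest mean stood for a gene, and the 25% of genes with the lowest mean (a log2 mean of up to 4.20) were left out of the test.

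Groups followed the titles. A mean for each of 4 groups was fitted with limma 3.58.1 in R 4.3.3 (lmFit, eBayes with an intensity trend, 6 residual degrees of freedom). P-values were adjusted over 13644 genes within each of 4 comparisons, and a gene was called under 0.05. The number of arrays limits the precision. The fit was checked on simulated log2 values. These gave a gene the same spread on every array, so the check does not cover an array that stands apart, as siLsd1 48 h replicate 3 does.

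Named with the value of every array are genes called in any comparison (where over 12 were called, the 12 with the largest absolute log2 change) and, in each of 9 roles, the gene with the largest absolute change at 24 h and at 48 h. Up to 3 called genes are named from each other list. The genes, roles, lists and tests were chosen with earlier results of these data known. Samples of the same number in the titles did not deviate together (correlations of −0.07 at 24 h and −0.19, 0.05 and −0.06 at 48 h), so the numbers were not taken as pairs. Promoter strings were searched with Python 3.11.15 in RefSeq windows of GRCm38.p6. Alternatives were another probe set rule, dim filter, normalization, added value, shrinkage, replicate block and set of arrays. Raising values under the dim level to it, leaving each array out for the other lists and leaving the brightest marker out of a sum were added after the data were seen.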

Additional observations from a re-analysis of the deposited data

How the results depend on the processing

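The 40 falls between the siC groups were 32 with probe sets of a gene averaged, and 35 to 40 with 1 array left out, all of them falls under every alternative. Of 479 values of the 23 named genes called there, 473 stayed on the same side of the threshold and 6 did not pass it, 5 of these with the mean of probe sets. At 24 h the 4 calls became 1 with the mean of probe sets, 13 with only the arrays compared and 0 to 17 with 1 array left out: 0 without siLsd1 24 h replicate 1 or siC 24 h replicate 1, 1 without siC 24 h replicate 2, 2 without siLsd1 24 h replicate 2 or siC 48 h replicate 2, and 17 when replicate 3 of siLsd1 at 48 h was dropped. Pola1 was 0.30 there with the mean of probe sets (limma adjusted p 0.783), which includes a dim one. At 48 h the 1 call became 0 with the mean of probe sets, 0 with only the arrays compared, 2 with arrays centred on their median and 0 to 4 with 1 array left out: 4 when siLsd1 48 h replicate 2 or 3 was dropped, and 0 when siC 48 h replicate 2 or 3 was. The Timeless call at 48 h was lost in 5 of 21 alternatives, and its call at 24 h in 3. The difference between the times had 0 calls and 0 to 1 with 1 array left out. With a replicate block by title number the calls were 1 at 24 h, 0 at 48 h and 39 between the siC groups. Of all genes 1.09%, 4.87% and 27.1% were then called. With a replicate block by the last digit of the sample codes the calls were 4 at 24 h, 5 at 48 h, 1 for the difference and 40. The shares of all genes were 10.8%, 16.5%, 0.432% and 38.0%. With values under the dim level raised to it, an alternative added after the data were seen, the counts were 4, 1, 0 and 40. The share of all genes called moved too. At 24 h it was 5.39% in the main fit, 3.13% with the mean of probe sets and 23.3% with only the arrays compared. At 48 h it was 12.7%, 6.95% and 1.83% in that order, and 13.2% with arrays centred on their median. Without siLsd1 48 h replicate 3 it was 25.5% at 24 h and 18.1% at 48 h. With any array of 24 h left out, the share at 24 h was below that of the main fit. Between the siC groups it was 24.2%, and 19.7% with the mean of probe sets, where 42 of the listed genes were tested. With 1 array of 48 h left out the share between the siC groups ran from 15.5% to 40.4%. The causes of these shifts were not tested.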

Other observations

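Of the 43 genes, 33 had 50 other probe sets, 37 of them above the dim level. Between the siC groups 4 of 35 such probe sets of called genes had the opposite sign: Slbp (1.95), Orc1 (0.50), Pola2 (0.45) and Cdc45 (0.25). At 24 h 0 of 2 had it, and at 48 h the 1 of Timeless. Among probe sets looked up after their values were seen, another one of Prim1, with a mean log2 intensity of 7.71, changed by −0.46 with the siRNA at 48 h and by −0.86 at 24 h, where the brighter probe set changed by −0.07 and −0.20. Another Mcm5 probe set, with a mean of 7.57, changed by −3.55 between the siC groups, where the brighter one changed by −3.02.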
